A study of Homo sapiens with 17 samples.

Results

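Sites of RNA polymerase pausing inside long intergenic non-coding RNA (lincRNA) genes were described in HEK293 cells, a human embryonic kidney line. A site is a genomic position and strand to which the authors fitted a pausing time. A site was counted as lincRNA where it lay on the strand of a gene typed lincRNA in GENCODE release 29, on chromosomes 1 to 22, and outside every protein-coding gene of that strand. MALAT1, NEAT1 and the small nucleolar RNA host genes whose names begin with SNHG were left out, together 384 positions. The rule used no measured time. It gave 2731 distinct positions of 158141 in the series, in 638 of 7435 annotated lincRNA genes (8.58%). Sites in protein-coding genes, 91008 positions, were the comparison.

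Cells were permeabilised and run on for 0.5, 2, 8 or 32 min, with sarkosyl in the run-on buffer or in sarkosyl-free buffer, in biological duplicates, which gave 16 libraries. Sarkosyl is a detergent that removes many proteins from chromatin while engaged polymerases go on elongating. Each buffer and replicate number has 1 table, fitted over the 4 run-on times, so each buffer had n = 2 tables. No treatment of the cells is labelled for these libraries. The remaining sample of the series, labelled Trp treatment, was not analysed here. The tables held 41769 to 66089 sites. Pausing times are printed as deposited, in a unit that the sources used here do not give, and the read depth behind them is unknown.

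LincRNAs are transcribed by RNA polymerase II, capped and often spliced, and most are made at low levels and kept in the nucleus. Many start at promoters shared with a coding gene on the other strand, and some serve as hosts from which microRNAs or small nucleolar RNAs are cut. An annotated lincRNA can also overlap a separate short RNA gene, such as a small nuclear RNA, a transfer RNA or the ribosomal RNA precursor, that has its own promoter and in some cases another polymerase.

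Several of the most recurrent lincRNA sites lay at the end of such a short RNA. A mature microRNA is a short RNA that guides repression of messenger RNAs. Outside ribosomal RNA, 25 lincRNA positions lay within 50 bp of one. Of these, 21 lay 3 bp or less from its 3′ end, and 17 of the 21 fell on its last base. In FP671120.1, 6 positions at the hairpin MIR3648-1 and 1 at MIR3687-1 were counted as ribosomal RNA and are not among the 25. The 21 positions belonged to 19 mature microRNAs with 12 different seeds in 15 lincRNA genes. This grouping was made after the positions had been seen. The mature sequences of the family with the most members and of miR-193b-3p, which had the longest times with sarkosyl, are shown from RefSeq on GRCh38.p14, with the seed (bases 2 to 8) in capitals.
hsa-let-7a-5p: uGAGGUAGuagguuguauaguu
hsa-let-7b-5p: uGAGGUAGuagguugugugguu
hsa-let-7c-5p: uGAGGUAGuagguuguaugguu
hsa-let-7f-5p: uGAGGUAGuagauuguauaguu
hsa-miR-193b-3p: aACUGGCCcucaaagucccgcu

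The 31 bases centred on such sites are shown next, read from GENCODE transcripts on GRCh38 in the direction of transcription, with the base at the deposited position in capitals. In these the capital is the last base of let-7a or let-7b, of SNORD3D (a copy of the U3 RNA that acts in ribosomal RNA processing), of TERC (the RNA template of telomerase) and of RNU12 (an RNA of the minor spliceosome).
let-7a in AL158152.2, chr9:94175968-94175998, plus strand: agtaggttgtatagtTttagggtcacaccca
let-7a in MIRLET7BHG, chr22:46112758-46112788, plus strand: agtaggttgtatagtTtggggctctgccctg
let-7b in MIRLET7BHG, chr22:46113697-46113727, plus strand: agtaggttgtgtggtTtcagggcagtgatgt
SNORD3D in AC007952.4, chr17:19112405-19112435, minus strand: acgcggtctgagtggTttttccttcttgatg
TERC, chr3:169764595-169764625, minus strand: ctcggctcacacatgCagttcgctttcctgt
RNU12 in Z93241.1, chr22:42615378-42615408, plus strand: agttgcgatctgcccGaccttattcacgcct

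A second set shows lincRNA sites that lay at no annotated short RNA and were held by all 4 tables. Except for that of Z93241.1 they lay 19 to 76 bp past the start of their gene, and their times are given further on.
EPB41L4A-AS1, chr5:112160896-112160926, plus strand: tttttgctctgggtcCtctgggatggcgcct
LINC01535, chr19:37251952-37251982, plus strand: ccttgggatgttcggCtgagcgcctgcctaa
NORAD, chr20:36050901-36050931, minus strand: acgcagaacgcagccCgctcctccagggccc
URB1-AS1, chr21:32393191-32393221, plus strand: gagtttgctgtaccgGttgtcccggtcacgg
SEPT7-AS1, chr7:35800508-35800538, minus strand: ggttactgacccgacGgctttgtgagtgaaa
PICART1, chr17:50055659-50055689, minus strand: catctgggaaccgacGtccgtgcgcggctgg
Z93241.1, chr22:42615692-42615722, plus strand: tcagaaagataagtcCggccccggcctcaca

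The base at the site was C or G in these 7 windows, and this held for most lincRNA sites. A window of 51 bases inside 1 annotated exon could be read for 1123 lincRNA positions. The site base was C in 59.9% and G in 35.2% of them, 95.1% together. The base before the site was C in 46.6%, the base after it T in 41.1%, and the third base before it G in 47.2%. The balance of C and G moved between tables. C made up 74.7% and 69.7% of lincRNA windows in sarkosyl replicates 1 and 2, then 53.9% and 28.3% in the sarkosyl-free pair. Coding sites showed the same order, with C in 73.8%, 71.9%, 50.9% and 21.7%. T was at the site in 3.47%, 5.66%, 4.37% and 5.20% of lincRNA windows, against 1.89%, 3.03%, 1.14% and 1.11% of coding windows.

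LincRNA sites with C had shorter times than those with G in all 4 tables. The difference of median log2 pausing time, C minus G, was -0.28 and -0.39 with sarkosyl, and -0.84 and -2.54 in its absence. For coding sites it was -0.15, -0.07, -0.71 and -1.41 in the same order. For lincRNA sites the two-sided exact sign-flip permutation test over the 4 tables gave p = 0.125, which is the smallest value it can give, and 0.208 after Benjamini-Hochberg adjustment over the 25 such tests made. This exact test cannot pass 0.05 with 4 tables, and every sign-flip test below has that limit. Likewise, the exact permutation of 2 tables against 2 cannot go below p = 0.333.

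LincRNA sites were spread over many genes but crowded in a few. Of the 638 genes, 272 held a single position, 237 had sites in 1 table only, and 138 had a site in each of the 4 tables. The numbers of lincRNA sites were 1051 and 987 with sarkosyl, and 1025 and 725 in its absence, 2.16%, 2.07%, 1.55% and 1.74% of the tables. The 5 genes with the most sites held 24.7%, 29.4%, 17.3% and 24.0% of the lincRNA sites. Among coding genes the corresponding share was 1.30%, 1.45%, 1.30% and 1.64%. Without sites at the short RNAs described below, the lincRNA shares were 13.7%, 18.5%, 10.99% and 16.4%. The plot of sites per gene shows the genes at the top.

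**Figure D1:**
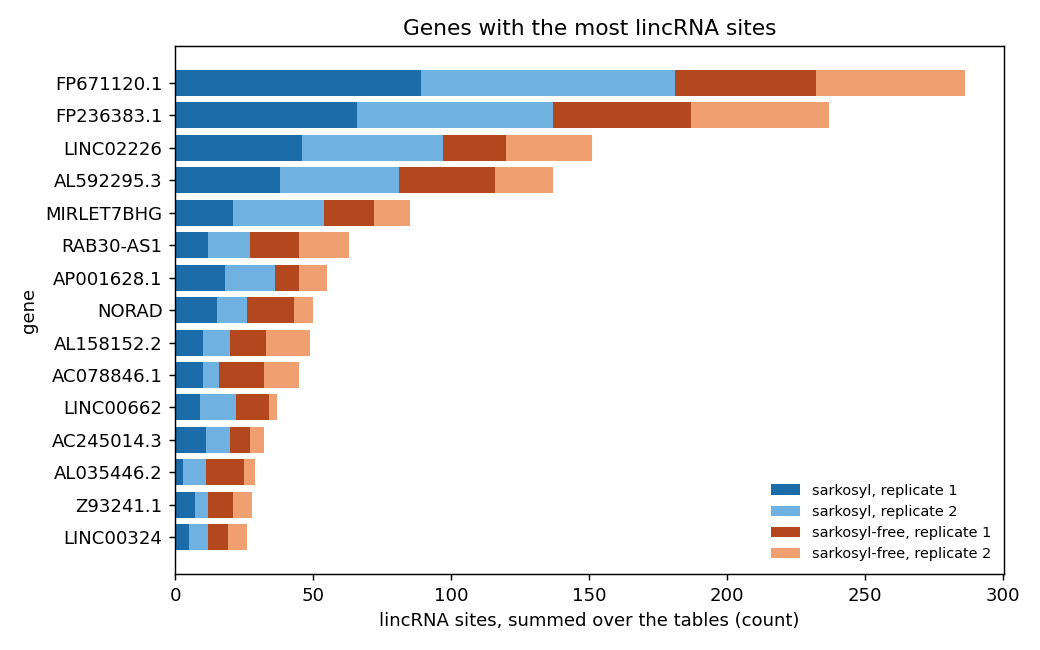
Sites of the 15 lincRNA genes with the most sites among those found in every table. Each bar adds the counts of the 4 tables, coloured by table, and FP671120.1 and FP236383.1 lead with 286 and 237.

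FP671120.1 and FP236383.1 on chromosome 21 led with 286 and 237 site counts summed over the tables. Both annotations overlap copies of the ribosomal DNA unit, RNA45SN2 and RNA45SN3, from which RNA polymerase I makes the ribosomal RNA precursor. Of their 317 positions, 266 lay in or within 50 bp of the annotated ribosomal RNA. The copies are near-identical, and how reads that match both were placed is not given in the sources used here. Their separate site counts are therefore uncertain. In the mature ribosomal RNAs, 29 and 24 sites with sarkosyl, and 22 and 30 in the sarkosyl-free tables, lay at corresponding positions of both copies. These were 82.9%, 68.6%, 75.9% and 88.2% of the smaller copy's sites, and their log2 times differed by medians of 0.07, 0.04, 0.23 and 0.12. The sites of the copies are therefore not separate measurements.

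LINC02226 came next, with 46 and 51 sites with sarkosyl, and 23 and 31 in its absence. Its gene spans 124078 bp on chromosome 5, yet all 100 distinct positions lay within 3024 bp, chr5:8333482-8336505, at the 3′ end of the annotation. That stretch is 2.44% of the gene. The median times of LINC02226 were 1.25 and 1.28 with sarkosyl, and 1.06 and 2.65 in its absence. AL592295.3 on chromosome 1 followed with 137 site counts, and 62 of its 67 positions lay at transfer RNA genes, among them copies for glutamate and glycine.

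MIRLET7BHG, the host of let-7a and let-7b on chromosome 22, had 21, 33, 18 and 13 sites in sarkosyl replicates 1 and 2 and sarkosyl-free replicates 1 and 2. Its median times were 2.10, 1.62, 2.80 and 5.88. RAB30-AS1 had 63 site counts and median times of 0.92, 1.81, 3.28 and 5.82. NORAD, a cytoplasmic lincRNA that binds Pumilio proteins, had 50 site counts over its single exon of 5339 bp and medians of 1.56, 1.27, 4.93 and 6.49. AL158152.2, which spans the let-7a-1 cluster, had medians of 2.16, 1.32, 3.29 and 6.43. In these genes sarkosyl-free replicate 2 held the longest times, as it did in the table as a whole.

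AP001628.1 differed from them in that its 4 medians were close, at 2.34, 1.72, 2.26 and 2.41. Z93241.1, a short lincRNA annotation around RNU12, went the other way, with 1.48 and 2.62 with sarkosyl, and 0.74 and 0.70 in its absence. AC078846.1 (1.32, 1.34, 5.46 and 7.46) and AC048341.1 (1.26, 1.81, 10.5 and 8.94) had the longer times in the sarkosyl-free tables. LINC00662 had 5.00, 2.16, 3.02 and 11.6, and AL035446.2 had 1.75, 1.87, 1.36 and 4.36. AC245014.3, which overlaps the variant U1 RNA gene RNVU1-14, had 1.24, 1.94, 0.89 and 8.00. LINC00324, with 14 of its 15 positions at transfer RNA genes, had 0.93, 1.08, 0.92 and 9.43.

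Of a list of 40 well-known long non-coding RNAs, 7 met the rule, and 6 of these are described. Beside NORAD, CRNDE (a lincRNA named for its expression in colorectal tumours) had 4, 1, 10 and 11 sites with medians of 5.15, 0.78, 1.27 and 9.90. EPB41L4A-AS1, the host of SNORA13, had 4, 4, 9 and 7 sites with medians of 1.56, 1.06, 1.96 and 2.11. TERC had 2, 2, 2 and 1 sites with medians of 2.28, 2.05, 0.49 and 0.98. LINC00461, a host of miR-9-2, had no site in sarkosyl replicate 2 and CYTOR none in sarkosyl-free replicate 2. CYTOR had 4 site counts in all and LINC00461 had 7.

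LincRNA sites fell into 5 groups by the short RNA gene within 50 bp of them on GRCh38, a division made after the data had been seen. Ribosomal RNA accounted for 266 positions in 2 genes, transfer RNA for 108 in 13 genes, other short RNA genes for 69 in 14 genes and microRNA hairpins for 26 in 16 genes. The remaining 2262 positions (82.8%) lay at none. Strand was matched except for transfer and ribosomal RNA, for which the gene table used holds no strand.

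The groups had different times. Median times of the ribosomal RNA group were 1.12 and 0.96 with sarkosyl, and 0.95 and 3.93 in its absence. Transfer RNA sites had 0.79, 0.85, 0.63 and 8.47, and the last value stood far above the other 3. Other short RNA genes had 1.66, 1.54, 0.74 and 1.10. MicroRNA hairpins had 3.73, 1.92, 0.69 and 2.79, from 14, 5, 19 and 14 sites. Sites at no short RNA had 1.50, 1.33, 1.82 and 6.85. For coding sites the medians were 1.53, 1.38, 2.33 and 9.09.

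Against coding sites of the same table, ribosomal RNA sites were shorter in all 4 tables, by -0.44, -0.53, -1.30 and -1.21 on the log2 scale. Transfer RNA sites were also shorter in all 4, at -0.96, -0.70, -1.89 and -0.10. Other short RNA sites were 0.11 and 0.16 longer with sarkosyl, and -1.66 and -3.05 in its absence. MicroRNA hairpin sites were 1.29 and 0.47 longer with sarkosyl, and -1.76 and -1.78 in its absence. Sites at no short RNA differed by -0.03, -0.06, -0.35 and -0.41. The ribosomal, transfer and other short RNA sites together (short-RNA sites below) were shorter than the other lincRNA sites in each table, by -0.44, -0.42, -1.02 and -0.88 (exact sign-flip p = 0.125, adjusted 0.208).

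**Figure D2:**
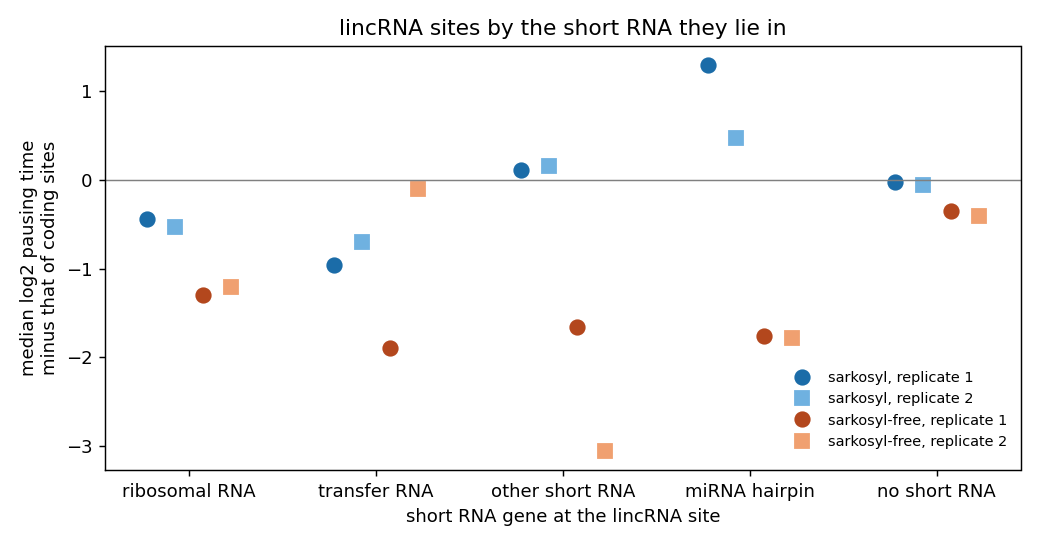
Median log2 pausing time of lincRNA sites minus that of coding sites in the same table, by the short RNA gene at the site. Each point is 1 table, and the microRNA hairpin and other short RNA points lie above 0 with sarkosyl and below it without.

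LincRNA sites as a whole had shorter times than coding sites in all 4 tables. The lincRNA medians were 1.41 and 1.24 with sarkosyl, and 1.32 and 6.13 in its absence. The difference of median log2 time was -0.12 and -0.15 with sarkosyl, a mean of -0.14 ± 0.02 (SD, n = 2 tables). Without sarkosyl it was -0.82 and -0.57, a mean of -0.69 ± 0.18 (SD, n = 2). The exact sign-flip test over the 4 tables gave p = 0.125, and the buffers' differences compared by exact permutation gave p = 0.333, each the smallest value possible. Without short-RNA sites the differences were -0.01, -0.05, -0.42 and -0.45. The sarkosyl mean was then -0.030 and the sarkosyl-free mean -0.43. Among the more certain sites of each table, those with the smaller ratio of upper to lower quartile of the rate, the sarkosyl-free mean was -0.034.

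Gene medians gave the same signs. With at least 3 sites a gene and table, 84, 81, 100 and 57 lincRNA genes entered. Their median minus that of coding genes was -0.06, -0.09, -0.53 and -0.59 (exact sign-flip p = 0.125, adjusted 0.208). Without short-RNA sites it was 0.02, -0.05, -0.34 and -0.56, so the sign in sarkosyl replicate 1 turned. Counting every gene with at least 1 site gave a sarkosyl mean of 0.0099 in place of -0.08.

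The comparison was repeated by position within the gene. Start-proximal sites, 0 to 300 bp past an annotated transcript start of their own gene, differed from coding ones by 0.01 and -0.03 with sarkosyl and by -0.76 and -0.02 without it (exact sign-flip p = 0.25). Only sarkosyl-free replicate 1 held a difference there. Sites further downstream differed by -0.26, -0.25, -0.65 and -0.71, and without short-RNA sites by -0.06, -0.13, -0.35 and -0.53. The plot of these differences by table shows how far the short-RNA sites moved each.

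**Figure D3:**
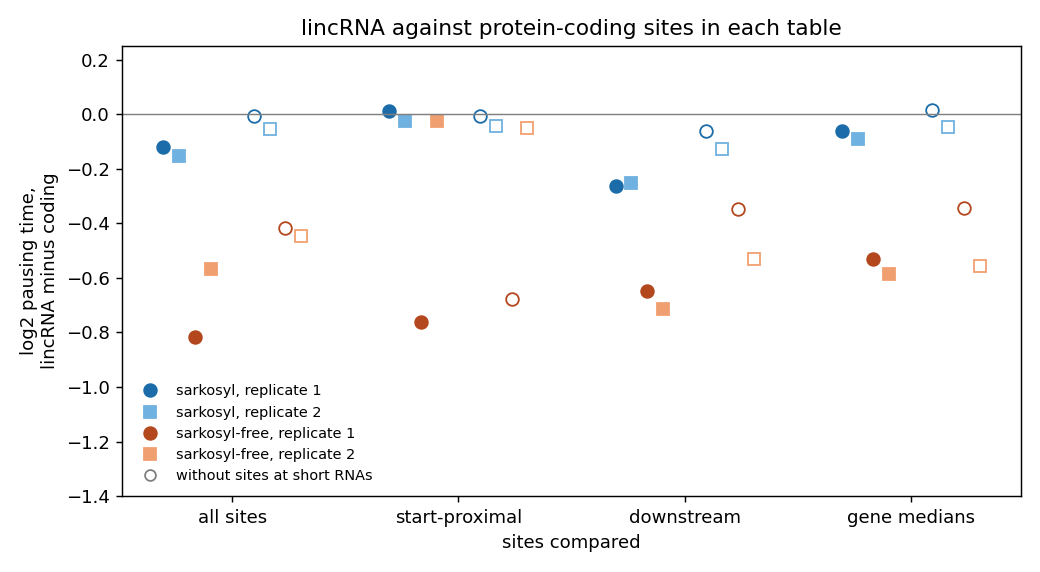
Median log2 pausing time of lincRNA minus coding sites in each table, for all sites, start-proximal sites, downstream sites and gene medians. Filled points use all lincRNA sites and open points leave out those at ribosomal, transfer and other short RNA genes, which brings the sarkosyl points for all sites to -0.01 and -0.05.

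Within lincRNA genes, times near the start were shorter once short-RNA sites were left out. Start-proximal minus downstream log2 time was then -0.39 and -0.22 with sarkosyl, and -0.82 and -0.03 in its absence (exact sign-flip p = 0.125, adjusted 0.208). Coding genes had -0.44, -0.31, -0.48 and -0.51. With all lincRNA sites the values were -0.16, -0.08, -0.60 and 0.18. In sarkosyl replicate 1 the median log2 time of lincRNA sites outside short RNA was -0.03 at 0 to 60 bp, 0.20 at 61 to 100 bp and 1.11 at 101 to 300 bp. Coding sites of that table had 0.07, 0.63 and 1.25 in these ranges. Sarkosyl replicate 2 had 0.13, 0.18 and 0.50 in lincRNA genes and sarkosyl-free replicate 1 had 0.07, 0.18 and 0.92, the same order. Sarkosyl-free replicate 2 had 2.77, 2.97 and 2.58, with the lowest value at 101 to 300 bp.

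Fewer lincRNA than coding sites were start-proximal with sarkosyl, 33.4% and 25.7% against 45.7% and 35.97%. Without sarkosyl the shares were 25.2% and 22.1% against 24.4% and 24.4%, so only 1 of these tables had the lower lincRNA share. The exact sign-flip test gave p = 0.25. The mean over the 4 tables was -6.02 percentage points, and it became 4.56 when only the gene's own 5′ end counted as a start. The share of exonic sites was 49.5%, 40.4%, 43.1% and 39.0% for lincRNA, and 58.0%, 51.3%, 41.5% and 44.0% for coding sites.

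LincRNA sites lay upstream of coding promoters more often than coding sites did. On the strand opposite to a coding gene and within 1000 bp upstream of its start were 20.9%, 14.99%, 14.7% and 12.8% of lincRNA sites. The same held for 10.6%, 7.9%, 5.8% and 5.1% of coding sites, so the share was higher by 8.54 ± 1.45 percentage points (SD, n = 4 tables; exact sign-flip p = 0.125, adjusted 0.208). The times of these divergent sites differed from those of other lincRNA sites by -0.15, 0.17, 0.09 and 0.22 on the log2 scale, without a common sign (exact sign-flip p = 0.375).

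Sites within 10000 bp past the end of a coding gene on its strand made up 11.5%, 13.0%, 11.4% and 14.1% of lincRNA sites. Their times were longer than those of the other lincRNA sites in all 4 tables, by 0.31, 0.32, 0.48 and 0.17 (exact sign-flip p = 0.125, adjusted 0.208). Their median times were 1.69, 1.52, 1.82 and 6.71, against 1.37, 1.22, 1.31 and 5.99 for the rest. Leaving out short-RNA sites lowered the mean difference from 0.32 to 0.16.

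Exonic and intronic lincRNA sites had no common direction over all sites, at -0.22, 0.08, -0.22 and 0.22 for exonic minus intronic log2 time (exact sign-flip p = 0.875). Without short-RNA sites the differences were all below 0, at -0.54, -0.14, -0.68 and -0.04 (exact sign-flip p = 0.125, adjusted 0.208). Neighbours were frequent: 46.3%, 39.5%, 32.8% and 32.6% of lincRNA sites had another site within 50 bp on the strand. Coding sites had one in 35.1%, 28.5%, 21.2% and 18.3%, a difference of 12.0 ± 1.51 percentage points (SD, n = 4 tables; exact sign-flip p = 0.125, adjusted 0.208). Outside short-RNA sites the lincRNA shares were 36.7%, 27.3%, 23.1% and 20.4%, above the coding share in 3 of the 4 tables.

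Sequence around exonic lincRNA sites was close to coding sequence in GC content. The 51-base windows held 57.9%, 57.0%, 53.7% and 54.6% GC in lincRNA and 60.6%, 58.8%, 54.7% and 53.9% in coding genes. The difference was -2.70 and -1.77 percentage points with sarkosyl, and -0.91 and 0.74 in its absence (exact sign-flip p = 0.25).

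LincRNA sites recurred between replicate tables. With sarkosyl 428 sites were common to both tables, 43.4% of the smaller and 40.7% of the larger lincRNA set. Without it 292 were common, 40.3% and 28.5%. For coding sites the shares of the smaller set were 34.0% and 30.2%. Leaving out short-RNA sites gave 36.7% and 34.4% for lincRNA. Log2 times at the common lincRNA sites were correlated across sites, with Spearman's rho of 0.73 with sarkosyl (n = 428 sites) and 0.51 without it (n = 292). Across buffers rho lay between -0.006 and 0.13 over 135 to 238 sites. Sites in 1 gene share their source and are not independent replicates.

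Most positions were seen once. Of the lincRNA positions 1981 (72.5%) were in 1 table and 88 (3.22%) in all 4, against 1.47% of coding positions in all 4. The share in all 4 tables was 21.7% for other short RNA genes, 15.4% for microRNA hairpins, 10.2% for transfer RNA, 7.89% for ribosomal RNA and 1.64% for sites at no short RNA. These 88 sites lay in 56 genes, with 11 in FP671120.1, 10 in FP236383.1, and 4 each in LINC02226 and AL592295.3.

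The ends of short RNAs made up 14 of the 88. Of 15 sites at other short RNA genes held by all 4 tables, 10 lay 3 bp or less from the 3′ end of the short RNA, and the 4 microRNA sites all did. Of 69 positions at other short RNA genes in any table, 11 lay that close. The plot of distances shows both kinds. Whether the RNA at these positions was nascent or finished was not tested.

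**Figure D4:**
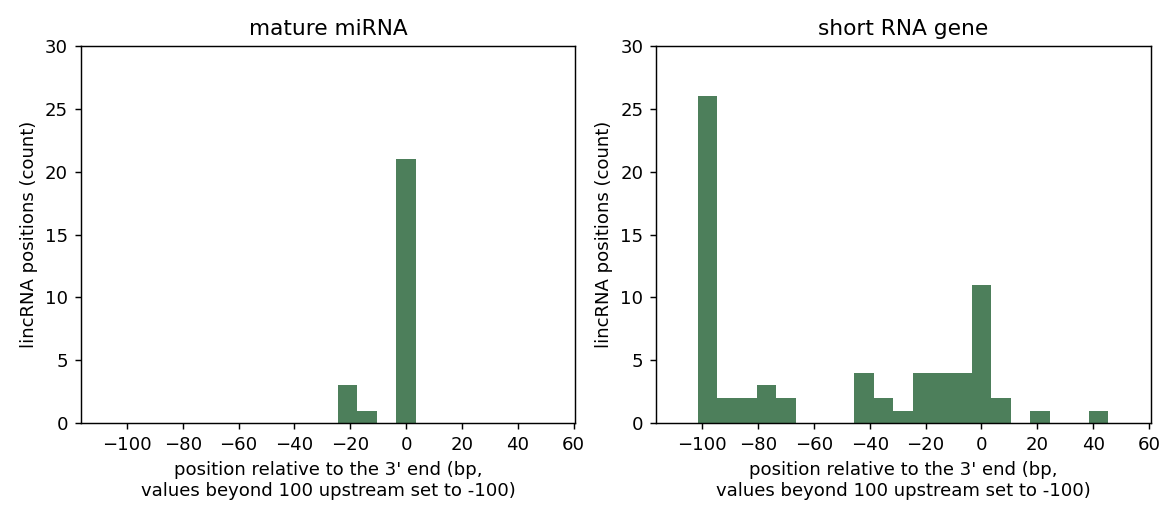
Number of lincRNA positions by distance in bp from the 3′ end of the nearest mature microRNA (left) or short RNA gene (right), negative upstream, with all positions over 100 bp upstream drawn in the bar at the left edge. The bar at 0 holds 21 of 25 positions on the left and 11 of 69 on the right, where the bar at the left edge is the tallest. Positions counted as ribosomal RNA are left out.

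Times at the microRNA ends were longer with sarkosyl than without it where all 4 tables held them. The let-7a end in AL158152.2 had 3.55 and 1.44 with sarkosyl, and 1.03 and 0.73 in its absence. At the let-7a end in MIRLET7BHG the times came to 3.92 and 1.62 in the sarkosyl pair, against 0.58 and 0.73 in the sarkosyl-free pair. The let-7b end of the same gene had 2.77 and 1.92, and 0.69 and 0.36. Its 2 sarkosyl times did not overlap the 2 sarkosyl-free times, and this held for all 4 microRNA ends, against a background of 29.2% of all 2967 sites shared by the 4 tables.

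The miR-193b-3p end in MIR193BHG had the longest times of the 4, at 30.3 and 5.92 with sarkosyl, and 1.19 and 1.61 in its absence. Other microRNA ends were each held by 1 to 3 of the tables. The end of miR-34a-5p, a microRNA induced by p53, had 7.87 in sarkosyl replicate 1 and 1.25 and 11.5 without sarkosyl. Over all 21 ends the median times were 3.92, 1.77, 0.69 and 1.90, from 11, 4, 19 and 13 positions.

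The end of SNORD3D had 3.80 and 2.90 with sarkosyl, and 0.68 and 0.72 in its absence. RMRP, the RNA of the endonuclease RNase MRP, had 3.55 and 2.28, and 0.67 and 0.56. SCARNA2, a guide RNA of Cajal bodies, had 3.14 and 1.57, and 0.77 and 0.33. These values do not overlap between buffers, nor do those of TERC (2.38 and 2.22, and 0.75 and 0.98) and of RNU12 (1.48 and 2.62, and 0.74 and 0.70). RN7SL2, an RNA of the signal recognition particle, had 2.99 and 2.04, and 1.32 and 0.79.

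The remaining ends overlapped between the buffers, except that of RF00019 in AC010542.4 (11.8 and 3.11, and 1.48 and 2.23). SNORA13 had 2.69 and 1.33, and 1.43 and 1.01. SNORD7 in LINC02001 had 2.56 and 1.16, and 3.11 and 1.94. RNU5E-1, a U5 RNA of the spliceosome, had 0.44 and 0.63, and 0.62 and 1.55. Both sarkosyl times lay above both sarkosyl-free times at 11 of the 14 ends and at 40 of the 88 lincRNA sites. The background given above for this order is 29.2%. The reverse order held at none of the 14 ends, at 16 of the 88 lincRNA sites and at 27.1% of all shared sites. By group, sarkosyl times were the longer at 11 of 21 ribosomal, 6 of 11 transfer and 10 of 15 other short RNA sites. This held at all 4 microRNA sites too. At no short RNA they were the longer at 9 of 37 sites and the shorter at 11. The ribosomal RNA sites lie in both near-identical copies and are not separate measurements.

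Sites at no short RNA moved in both directions, as shared sites in general did. Both sarkosyl times lay above both sarkosyl-free times at 9 of 37 such sites and below them at 11. Over all shared sites these orders held at 29.2% and 27.1%. In EPB41L4A-AS1 the site 19 bp past its start had 0.57 and 0.69 with sarkosyl, and 11.6 and 58.8 in its absence. LINC01535 had 0.95 and 1.11, and 10.9 and 8.70, at 41 bp past the start. AC142472.1 had 0.87 and 1.12, and 13.2 and 5.10. At these 3 sites both sarkosyl-free times were the longer. The reverse was seen in Z93241.1 463 bp past the start, with 10.5 and 8.40, and 0.33 and 0.38, and in PICART1, with 0.86 and 1.10, and 0.30 and 0.24.

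URB1-AS1 was long in each table, at 14.5, 3.80, 24.4 and 33.3, with both sarkosyl-free times again the longer. MIR181A1HG, a host of miR-181, also had both sarkosyl-free times the longer, with 2.02, 1.20, 2.21 and 55.6. Here 1 table set the mean, and only that table had a long time. Times overlapped between the buffers at the next 3 sites. RAB30-AS1 had 6.62, 3.85, 5.92 and 7.52 at a site 12797 bp into the gene, and SEPT7-AS1 had 5.08, 2.08, 3.05 and 4.42. NORAD, 44 bp past its start, had 2.60, 1.17, 2.39 and 0.84. The 4 shared sites of LINC02226 had sarkosyl times between 1.33 and 2.01 and sarkosyl-free times between 0.20 and 12.7, and at 2 of the 4 both sarkosyl times were the longer. These single sites were chosen for display after their values had been seen.

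**Figure D5:**
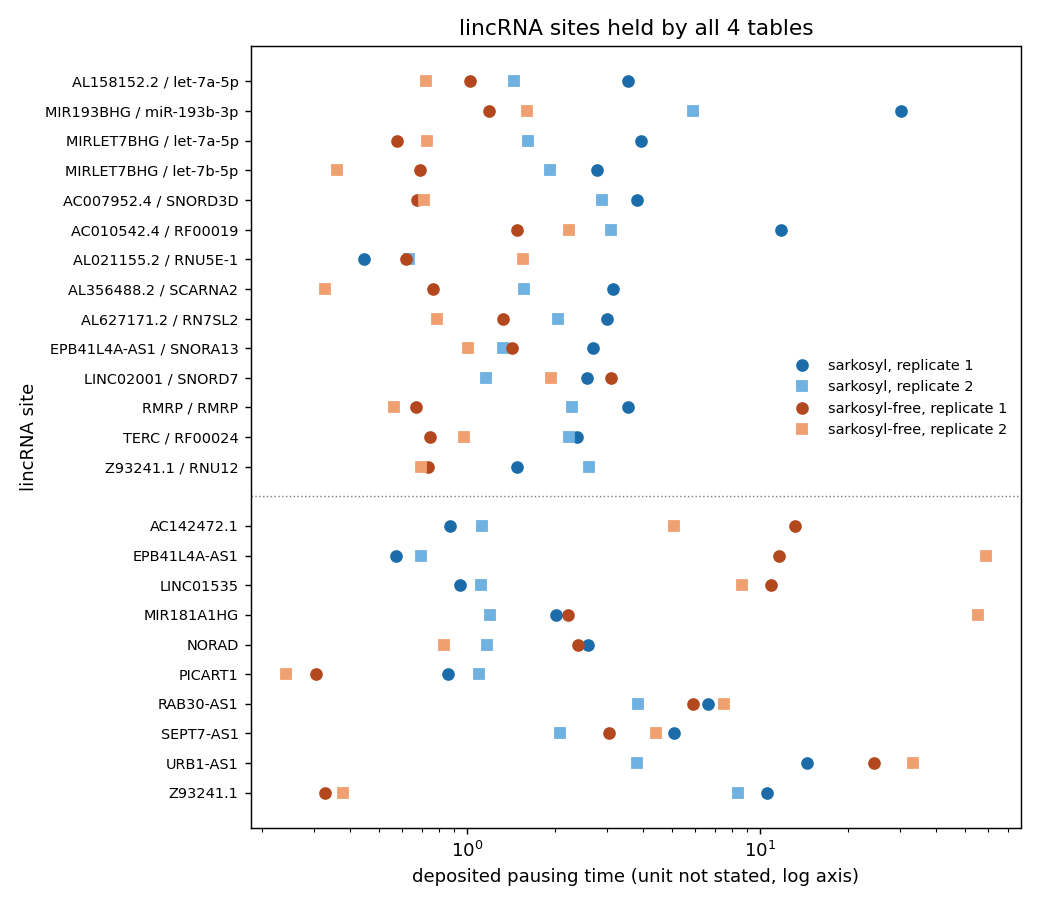
Deposited pausing time, on a log axis, of lincRNA sites held by all 4 tables, with 1 point a table. Rows above the dotted line are the 14 sites at short RNA 3′ ends, labelled by lincRNA gene and short RNA, and rows below are sites at no short RNA; both sarkosyl points lie to the right of both sarkosyl-free points in 11 of the 14 upper rows.

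None of the 88 lincRNA sites passed the threshold for a difference between buffers (limma over all 2967 shared sites, Benjamini-Hochberg adjusted p under 0.05, background 0.00%). The smallest adjusted p among them was 0.155, for Z93241.1 (log2 difference 4.88 ± 0.71 SE), EPB41L4A-AS1 (-5.24 ± 0.96), LINC00623 (3.36 ± 0.74) and LINC01535 (-3.10 ± 0.72), all by limma with n = 2 tables a buffer. At unadjusted p under 0.05, 26 lincRNA sites were counted, 29.5% of the 88 against a background of 23.2%. Of these 18 were longer with sarkosyl (background 12.0%) and 8 shorter (background 11.2%). The median log2 difference, sarkosyl minus sarkosyl-free after centring of each table, was 1.01 for lincRNA sites and 0.22 for all shared sites.

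By group, the median difference was 1.20 at 21 ribosomal RNA sites, 1.35 at 11 transfer RNA sites, 1.59 at 15 other short RNA sites, 2.22 at 4 microRNA sites and 0.28 at 37 sites at no short RNA. Without sarkosyl-free replicate 1, 41 lincRNA sites passed (46.6%, background 53.8%), and without sarkosyl-free replicate 2, 18 did (20.5%, background 22.2%). In these fits the lone table was assumed to vary like the pair of the other buffer. With sarkosyl replicate 1 or 2 left out, no lincRNA site passed by limma, and 2 and 8 had an unadjusted p under 0.05 (backgrounds 3.00% and 6.98%).

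Gene medians gave no call either. Of 1439 genes with at least 3 sites in each table, 36 were lincRNA genes, and none passed by limma (background 0.00%; smallest adjusted p 0.404). At unadjusted p under 0.05, 5 of the 36 were counted, 13.9% against a background of 9.38%. After centring of each table all 5 were longer with sarkosyl (background 7.85%, and 1.53% for shorter). These genes were AC084082.1 (centred log2 difference 3.38 ± 0.62 SE), Z93241.1 (3.06 ± 0.80), LINC01783 (2.85 ± 0.88), AL021155.2 (2.10 ± 0.61) and AC007952.4 (1.71 ± 0.70). As deposited, the log2 medians of AC007952.4 were -0.39 and 0.20 with sarkosyl, and -0.41 and 0.01 in its absence. Those of AL021155.2 were 0.84 and 0.54, and -0.24 and 0.63. The buffers thus overlapped in these 2 genes, and they did not in AC084082.1, Z93241.1 and LINC01783. Each of these 5 annotations holds sites at a short RNA gene: transfer RNA in AC084082.1 and LINC01783, RNU12, RNU5E-1 and SNORD3D in the others. Such sites were also found in genes that were not counted, and whether they bear on the differences was not tested. FP671120.1, FP236383.1, AL592295.3, AL592295.4, LINC00324, AC245014.3, LINC00623 and EPB41L4A-AS1 hold such sites too and were not counted. Their log2 differences ran from -0.13 (AL592295.3) to 0.92 (FP671120.1). Without sarkosyl-free replicate 1, 6 lincRNA genes passed (background 4.31%), with the lone sarkosyl-free table assumed to vary like the sarkosyl pair. Without centring, 1 lincRNA gene had an unadjusted p under 0.05 (background 14.0%), and it was shorter with sarkosyl.

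The 36 genes varied widely among themselves. Their medians ran from 0.77 (AC007952.4) to 7.19 (AC026471.4) in sarkosyl replicate 1 and from 0.84 (AC084082.1) to 2.62 (Z93241.1) in sarkosyl replicate 2. In the first sarkosyl-free table they ran from 0.23 (AC084082.1) to 10.5 (AC048341.1), and in the other sarkosyl-free table from 0.31 (LINC01783) to 17.5 (AL136115.2). The median log2 difference between buffers was 0.73 for the lincRNA genes and 0.12 for all genes, and 29 of the 36 lincRNA genes had a difference above 0. Without centring on the table medians it was -0.87 against -1.49, and 5 of 36 were above 0.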

How the data were processed

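The authors deposited 4 tables of fitted rates, 1 per buffer and replicate. Per the file headers, a row gives quartiles and a median of a fitted rate (other units) and a pausing time; in every row the time equals the reciprocal of the median. Rates are rounded to 3 decimals. Per the submitters' processing notes, cutadapt 1.14, HISAT2 2.1.0, SAMtools and bedtools were used on hg38; the site-calling rule is not given in the sources used here.

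Times were analysed as log2 with Python 3.11.15, pandas 2.3.3, numpy 2.4.6, scipy 1.17.1 and R 4.3.3. Figures used matplotlib 3.10.9. Positions were read as counting from 1, since the share of C or G at that base was then alike on both strands. Classes were compared as differences of medians within each table, by exact sign-flip permutation over 4 tables. Buffers were compared with limma 3.58.1 on values centred on each table's median. Its use here was tried on simulated data, but no outcome is given, so no error rate follows from that trial. At lincRNA sites common to both replicates, log2 times differed by a median of 0.54 with sarkosyl and 1.34 without it. How limma performs under this unequal spread is not shown here. Ribosomal RNA copies were matched by distance from the start or the end of the same mature RNA. No genome sequence was used, so base composition and GC rest on sites whose window lies in 1 annotated exon, read from transcripts, a narrower set than planned.

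The members and lists were chosen with earlier results of these data known. Genes named are the 15 with the most sites (LINC00324 and CRNDE tie with AC048341.1 at 26), those with most sites shared by 4 tables and those of the known list; 1 of these is not reported here. Alternatives covered windows, filters, scaling, the replicate block and leaving out each table; leaving out short-RNA sites was added after seeing the data.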

Additional observations from a re-analysis of the deposited data

Results flagged for a closer look

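Both sarkosyl tables lay on one side of 0 and both sarkosyl-free tables on the other for 4 results. The pausing time of other short RNA sites minus that of coding sites was 0.11 and 0.16 with sarkosyl, and -1.66 and -3.05 in its absence, a difference between buffers of 2.49 on the log2 scale. For microRNA hairpin sites it was 1.29 and 0.47, and -1.76 and -1.78, a difference of 2.65. These differences between buffers were not tested. The relative uncertainty, the log2 ratio of the upper to the lower quartile of the fitted rate, had a difference of lincRNA minus coding sites of -0.03 and -0.07 in the sarkosyl tables and of 0.14 and 0.10 in the sarkosyl-free ones, a difference of -0.17 between buffers. The share of sites within 10000 bp past a coding gene, lincRNA minus coding, was -4.71 and -2.84 percentage points with sarkosyl, and 0.46 and 2.58 in its absence, a difference of -5.29. For both of these the two-sided exact permutation of 2 tables against 2 gave p = 0.333, the smallest value possible.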

How the results depend on the processing

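All values here are lincRNA minus coding, in log2 pausing time unless stated, and for each change below the cause was not tested. Leaving out a table changed no sign of the level over all sites, the downstream level or the gene-level difference. Over all alternatives the level stayed below 0 in both buffers, from -0.20 to -0.029 with sarkosyl and from -0.91 to -0.034 without it, and so did the downstream level. Start-proximal differences with sarkosyl took both signs. Depth is unknown, n is 2 tables a buffer, and the exact tests cannot pass 0.05. Where a table was left out of limma, the lone table was assumed to vary like the other pair.

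With 1 site per 1 kb the sarkosyl values were -0.073 over all sites, 0.044 start-proximal and -0.13 downstream, and the sarkosyl-free downstream value was -0.61. Means gave -0.46 over all sites without sarkosyl, 0.041 start-proximal with it, and -0.23 and -0.52 downstream with and without it. The more certain sites gave -0.066 and -0.034 over all sites with and without sarkosyl, 0.15 start-proximal without it, and -0.12 and -0.076 downstream. Sites of both tables of a buffer gave -0.20 and -0.91 over all sites, 0.079 and -1.29 start-proximal, and -0.41 and -0.96 downstream. Without lincRNA sites near coding genes the sarkosyl values were -0.17, 0.035 and -0.31, and the sarkosyl-free downstream value was -0.79. Without overlapping genes they were -0.18 over all sites and -0.31 and -0.62 downstream. Without the gene with the most sites the downstream values were -0.23 and -0.60, and without extreme sites -0.25 with sarkosyl. The gene's own 5′ end gave 0.056 start-proximal and -0.21 downstream with sarkosyl. Start-proximal windows of 100 and 1000 bp gave -0.077 and -0.055 with sarkosyl, and the downstream window of 1000 bp gave -0.76 without it.

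Without short-RNA sites the values were -0.030 and -0.43 over all sites, -0.095 and -0.44 downstream, and -0.016 and -0.45 for gene medians. Leaving out hairpins and LINC02226 as well gave -0.029 and -0.37, and downstream -0.074 and -0.36. Gene medians with at least 1 site gave 0.0099, a reversed sign, and -0.48, and with at least 5 sites -0.12 and -0.37. The start-proximal share, -6.02 percentage points over the 4 tables, was -2.40 with a window of 1000 bp, -2.89 as a mean over genes, -2.88 without short-RNA sites and 4.56 with the gene's own 5′ end. It ran from -8.295 to -3.93 without single tables. The GC difference, -1.16 points, was 2.97 downstream, -3.99 start-proximal and 0.51 with 100 bases either side. Relative uncertainty ran from 0.00115 to 0.0717 without single tables. Without short-RNA sites the divergent difference was -0.11 in place of 0.08, the read-through difference 0.16, the exonic difference -0.35 in place of -0.04, and the excess of replicate sharing 2.65 and 4.21 points.

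Among all shared sites 0 passed limma in the reported fit (689 at unadjusted p under 0.05). With quantile normalization 158 of all 2967 shared sites passed, and 3 of the 88 lincRNA sites. With normal scores 231 of the 2967 passed, and 7 of the 88. With 1 table left out, 0 to 1597 passed, 0 to 41 of them lincRNA. For gene medians the range was 0 to 62, with 0 to 6 lincRNA genes, and 135 genes had an unadjusted p under 0.05. The replicate number as a block gave 161 of the 2967 sites, 4 of the 88 lincRNA sites, and 0 genes. Deviations of same-numbered tables correlated at 0.013 over sites and 0.062 over genes. These correlations cannot tell whether same-numbered tables were prepared together.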

Other observations

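Of the intronic lincRNA sites held by all 4 tables and at no short RNA, 5 sites in 5 genes on 4 chromosomes had both sarkosyl times under both sarkosyl-free times. In the order sarkosyl replicates 1 and 2 and sarkosyl-free replicates 1 and 2, AC006288.1 had 0.59, 0.81, 2.54 and 4.26, and AC021351.1 had 0.63, 0.84, 2.16 and 2.97. AL390957.1 had 0.62, 0.81, 2.96 and 2.31, FP700111.1 had 0.56, 0.82, 2.22 and 3.22, and AC114316.2 had 0.87, 0.75, 3.37 and 8.77. They were picked after their values had been seen. The reverse order held at such intronic sites of AC092723.4, LINC01344, LINC02226 and AC009975.1. Of the 37 sites at no short RNA held by all 4 tables, 21 were exonic. Among the 37, exonic and intronic together, 11 had both sarkosyl times under both sarkosyl-free times and 9 had the reverse. Over all shared sites the 2 orders held at 27.1% and 29.2%.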
